A study of Mus musculus with 4 samples.

Results

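Cells that divide switch on 2 sets of genes in turn, one while they copy their DNA (S phase) and one while they prepare for and pass through mitosis (G2/M). The 42 cell cycle genes described here are 20 S phase and 22 G2/M genes, taken by name from a marker list rather than by any measured value. All 42 were present among the 27932 genes of the deposited tables. They were counted in cells of 4 Drop-seq libraries of mouse kidney at stage E14.5, a method that catches cells in droplets with barcoded beads and sequences the 3' ends of their transcripts. The 2 mutant libraries carry the genotype label Hoxa9,10,11 and Hoxd9,10,11 -/-, and the other 2 libraries are wildtype. All 4 are of mixed strain, mostly CD-1 and 129, and the labels name no agent for either group. The labels do not say how many embryos gave a library or whether kidneys were pooled, so p-values here measure no more than the spread among the 4 libraries, and that spread may be technical. The series title concerns reduced function of Abd-B Hox genes, patterning factors of the posterior body, and how faithfully kidney cells keep to a lineage. The comparisons therefore ask how the cell cycle genes were distributed over kidney lineages, and whether that differed between mutants and wildtype.

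As background, the S phase genes are largely driven by E2F factors, which the retinoblastoma protein RB holds in check until cyclin D with CDK4 or CDK6 releases them. The G2/M genes are largely driven through a promoter element called CHR, which the MuvB complex binds, first as a repressor and later together with B-MYB and FOXM1 as an activator. In the developing kidney, nephron progenitors renew themselves around the ureteric bud tips, their committed descendants divide as renal vesicles and S-shaped bodies, and podocytes leave the cell cycle as the filter forms.

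The members fall into groups by role. Among the S phase genes, Mcm2 to Mcm7, Cdc45 and Gins2 encode parts of the helicase that unwinds DNA, and Cdc6 and Cdt1 load it onto origins. Rrm1 and Rrm2 (ribonucleotide reductase), Tyms (thymidylate synthase) and Dut (dUTPase) supply and clean the nucleotide pool. Pcna is the sliding clamp of the polymerases, Fen1 trims flaps of the lagging strand, Ung removes uracil from DNA, Uhrf1 and Hells maintain DNA methylation and chromatin, and Slbp binds histone mRNA. Among the G2/M genes, Cdk1 with Ccnb1, Ccnb2 and Ccna2 forms the mitotic kinase and its cyclins. Aurka, Aurkb, Plk1, Birc5 and Tpx2 are mitotic kinases or their partners. Cenpa, Cenpe and Cenpf act at the centromere, Bub1, Bub1b, Cdc20 and Ube2c at the spindle checkpoint and the ubiquitin ligase APC/C that ends mitosis. Nusap1, Kif11, Kif23 and Anln act in the spindle or in cytokinesis, Top2a untangles chromosomes, and Mki67 (Ki-67) coats them. The members lie on 16 chromosomes. In mm10 (GENCODE vM21), for example, Rrm2 spans chr12:24708241-24714146 and Dut chr2:125247190-125258608 on the plus strand, and Pcna spans chr2:132249162-132253314 and Cdk1 chr10:69335146-69352938 on the minus strand. Counts are per whole gene, so exons were not told apart.

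The 2 phases differed in their promoters. RefSeq windows of 250 bases before to 50 bases after the start (build GRCm38.p6) were found for 37 of the 42 genes. The CHR core, TTTGAA on either strand, stood in 14 of 19 G2/M windows (73.7%) and in 3 of 18 S phase windows (16.7%), against 20.2% of the windows of 27025 genes. An E2F form (TTTCGCGC, TTTGGCGC or TTTCCCGC on either strand) stood in 8 of 18 S phase windows (44.4%) and in 1 of 19 G2/M windows (5.26%), against 2.12% of all. The box CCAAT, on either strand, stood in 11 of 18 S phase windows (61.1%) and 16 of 19 G2/M windows (84.2%), against 41.1% of all. A match describes letters only and shows no binding. A stretch of 160 bases from 6 windows is printed 5' to 3' on the strand of the gene, because these 6 show both elements plainly. Capitals mark the E2F forms in Mcm5 and Mcm6, where a TTTCGCGC and a TTTGGCGC on opposite strands overlap, and the CHR core in Cdk1, Cdc20, Kif11 and Ube2c, which reads TTCAAA where it lies on the other strand.
Mcm5 chr8:75109349-75109508 plus strand: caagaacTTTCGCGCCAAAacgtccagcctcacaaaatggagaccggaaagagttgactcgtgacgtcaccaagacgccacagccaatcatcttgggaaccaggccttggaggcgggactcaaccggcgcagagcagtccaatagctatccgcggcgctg
Mcm6 chr1:128359706-128359865 minus strand: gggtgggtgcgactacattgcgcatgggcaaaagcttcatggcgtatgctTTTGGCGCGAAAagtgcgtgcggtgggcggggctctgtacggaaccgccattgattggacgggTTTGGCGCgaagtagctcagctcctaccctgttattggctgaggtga
Cdk1 chr10:69352913-69353072 minus strand: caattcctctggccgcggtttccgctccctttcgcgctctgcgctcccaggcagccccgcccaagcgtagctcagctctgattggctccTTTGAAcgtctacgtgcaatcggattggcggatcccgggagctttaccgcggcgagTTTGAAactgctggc
Cdc20 chr4:118437344-118437503 minus strand: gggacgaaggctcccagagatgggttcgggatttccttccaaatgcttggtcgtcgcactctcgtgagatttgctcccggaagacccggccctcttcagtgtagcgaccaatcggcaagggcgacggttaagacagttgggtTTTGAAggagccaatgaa
Kif11 chr19:37376222-37376381 plus strand: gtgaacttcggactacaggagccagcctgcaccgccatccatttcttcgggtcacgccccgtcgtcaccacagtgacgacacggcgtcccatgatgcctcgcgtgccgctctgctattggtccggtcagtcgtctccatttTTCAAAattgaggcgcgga
Ube2c chr2:164769769-164769928 plus strand: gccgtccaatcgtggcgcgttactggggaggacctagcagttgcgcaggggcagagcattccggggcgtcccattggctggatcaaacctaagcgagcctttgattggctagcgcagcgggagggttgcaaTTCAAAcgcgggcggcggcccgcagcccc
The first 2 are S phase genes of the helicase. The other 4 are the mitotic kinase, an activator of APC/C, a spindle motor and the ubiquitin conjugating enzyme of APC/C. The Cdk1 stretch also holds an E2F form, left in lower case, and it is the 1 G2/M window with such a form.

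The libraries differed in size and quality. Mutant 1 and mutant 2 held 3572346 and 21350698 counts, against 9817486 and 24834658 in wildtype 1 and wildtype 2. After filtering, 810 and 4329 mutant cells and 1851 and 4788 wildtype cells were kept, with medians of 2394, 3027, 3597 and 3466 counts (called UMIs here) per cell in that order. A mitochondrial share over 10% was found in 19.6% and 29.1% of mutant barcodes, against 7.76% and 9.06% of wildtype barcodes. Malat1, a nuclear RNA, stood at 4676 and 6548 CPM (counts per library or lineage scaled to a common total, the unit of levels throughout) in the mutants and at 1679 to 2281 CPM in wildtype. Mutant 1 was the shallowest library and stands apart in several results below. Genotype differences of the phase sums and medians, over all kept cells and within lineages, are given with and without it. Those of shares are so given over all kept cells and for 3 lineages. In all, 3 barcodes were shared between libraries. The 6 targeted Hox genes ranged from 29.6 to 197 CPM in mutants and from 20 to 175 CPM in wildtype, with edgeR adjusted p of 0.115 to 0.958. A 3' tag outside a deleted stretch does not check a deletion, and the labels do not give the alleles.

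Cells were placed in lineages by marker UMIs alone, with no member in the rule, and 8197 of 11778 kept cells met it. The rule itself fixes an excess of own over other markers, so marker levels describe the gates and do not test them. Gated cells held 10.9 to 32.4 own-marker UMIs per cell outside the neural and chromaffin gate, and podocytes 11 podocyte and 3.23 stroma marker UMIs per cell. Cells that met the nephron progenitor rule made up 0% and 0.162% of mutant cells, against 15.9% and 15.1% of wildtype cells. The rule depends on marker levels, and 24.2% and 23.4% of mutant and 26.8% and 39.2% of wildtype cells stayed ungated. Stroma supplied 409 and 2107 mutant cells and 519 and 1055 wildtype cells. Because the mix of lineages moved with genotype, lineages were first described within wildtype.

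In wildtype kidneys the early nephron, the committed epithelium of renal vesicles and S-shaped bodies, had the highest S phase sum, and for G2/M it was highest in wildtype 2 and next to endothelium in wildtype 1. Its S phase sum was 3398 and 3221 CPM in wildtype 1 and 2, and its G2/M sum 4360 and 4184 CPM. Nephron progenitors came next for S phase, with 3206 and 2939 CPM, but their G2/M sum of 3420 and 3167 CPM lay below that of stroma, 3575 and 3520 CPM. Endothelium had a middling S phase sum of 2752 and 2566 CPM and a high G2/M sum of 4811 and 3706 CPM. The proximal tubule had an S phase sum of 1790 and 1465 CPM, below each other lineage tested. Its G2/M sum was 2196 and 3313 CPM, a spread that overlapped those of the loop and distal tubule (2872 and 3424 CPM), the ureteric bud and collecting duct (3533 and 2772 CPM) and immune cells (3517 and 2393 CPM). For S phase, the ureteric bud and collecting duct (2747 and 2325 CPM) overlapped endothelium, stroma (2549 and 2396 CPM) and immune cells (2102 and 2393 CPM). The loop and distal tubule had an S phase sum of 2233 and 2052 CPM, which overlapped that of immune cells.

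**Figure D1:**
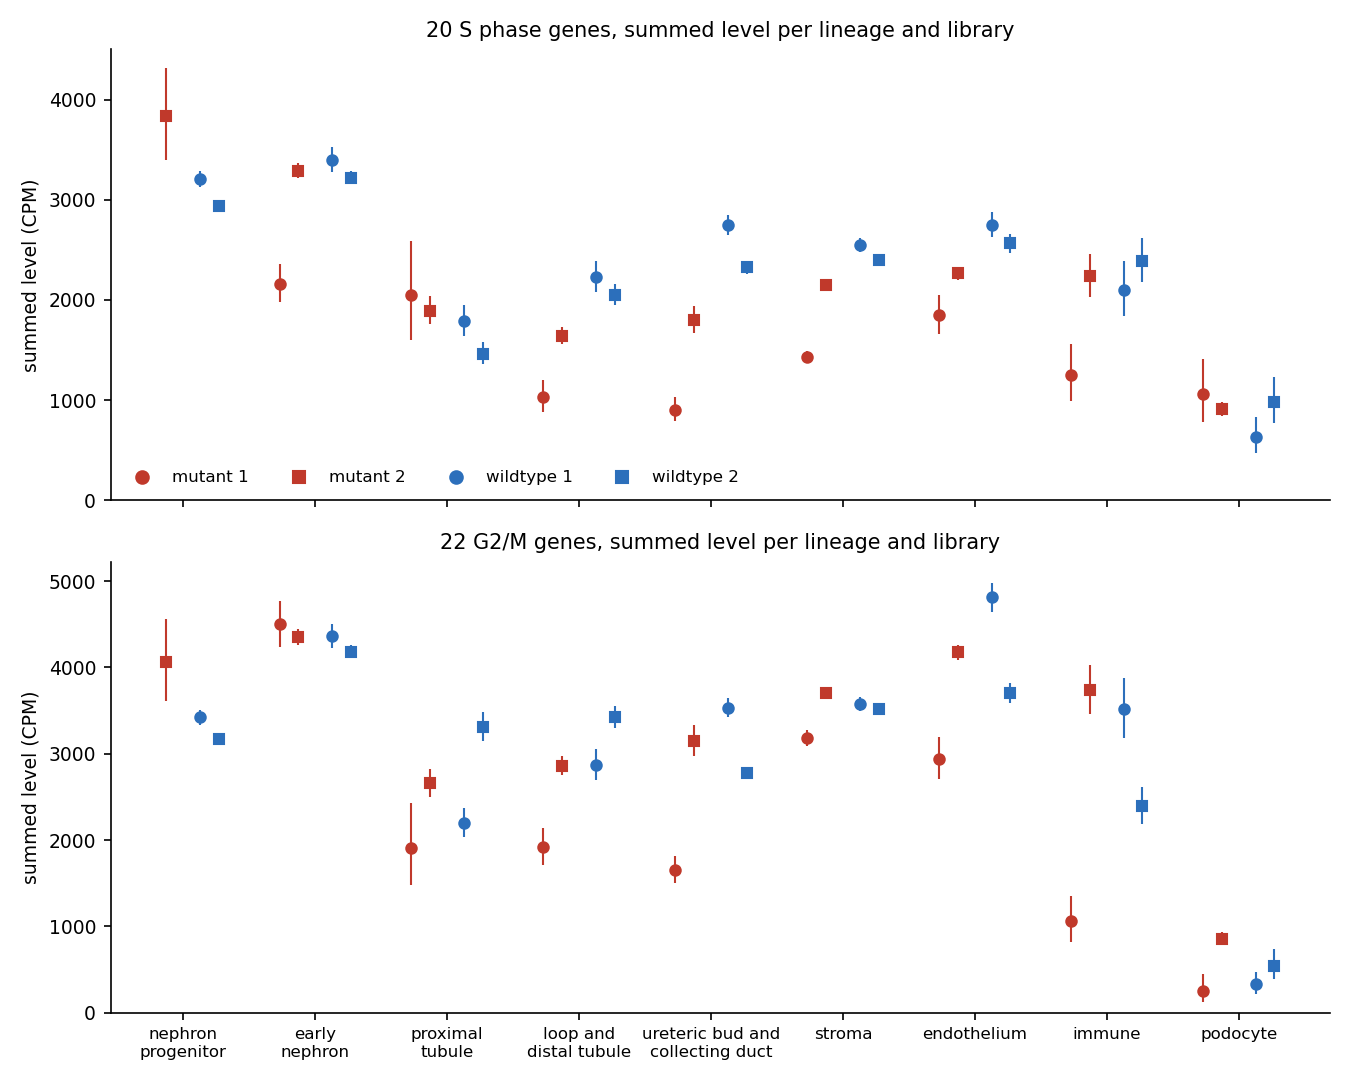
Summed level of the 20 S phase genes (top) and the 22 G2/M genes (bottom) in CPM per lineage, red for mutant and blue for wildtype libraries, with bars for the exact 95% Poisson interval, which covers counting error only. Early nephron cells sit high in both panels, podocytes (gated with Col1a2 left out of the stroma list) low in both, and mutant 1 lies below the other libraries in most lineages.

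Nephron progenitors thus carried more S phase message than G2/M message relative to other lineages. Their ratio of G2/M to S phase sums was 1.07 and 1.08 in wildtype 1 and 2, and 1.06 in the 7 progenitor cells of mutant 2. Early nephron cells had 1.28 and 1.3 in wildtype, stroma 1.4 and 1.47, and endothelium 1.75 and 1.44. In wildtype 1 the progenitor ratio was the lowest of the 8 lineages tested, and in wildtype 2 immune cells alone were lower, at 1. Each ratio compares sums of different genes, so its absolute size has no meaning beyond these lists.

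Gene by gene, the difference of each wildtype lineage from the mean of the 7 others was tested with edgeR on sums per library and lineage, with library as block. Its p-values rest on the scatter of lineage sums in the wildtype libraries alone, and do not measure a spread among animals. Among 11599 genes, 18.3% were higher and 9.79% lower in nephron progenitors at an adjusted p under 0.05. In that lineage 13 of 20 S phase genes were higher and none lower, with a median log2 difference of 0.33. Of the 22 G2/M genes, 1 was higher and 1 lower, with a median of -0.01. The pair, named after its values were seen, was Cenpe, a kinetochore motor, at 0.30 and Ccnb2, a cyclin B, at -0.27. Dut had 393 and 445 CPM in wildtype progenitors, against a median of 212 CPM in the other lineages. Its log2 difference was 0.99 (SE 0.08, edgeR adjusted p = 8.05e-18), and it was highest there in both libraries. Uhrf1 had 127 and 118 CPM in progenitors and a log2 difference of 0.61 (SE 0.11, edgeR adjusted p = 5.76e-06), while the other lineages ran from 31.9 to 155 CPM. Progenitor and other values of Uhrf1 therefore overlapped. Across 9 other settings the number of S phase genes called higher ran from 9 to 15, and no setting called one lower.

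Early nephron cells were high in both phases. There 11 of 20 S phase and 15 of 22 G2/M genes were higher and none lower, with medians of 0.42 and 0.43, where 16% of all genes were called higher. Rrm2 had the smallest p, with 292 and 349 CPM in early nephron cells and 52.8 to 204 CPM in the other wildtype lineages. Its ranges did not overlap, and its log2 difference was 1.27 (SE 0.09, edgeR adjusted p = 3.89e-20). Mcm7 had 271 and 236 CPM in early nephron cells, above the 105 to 221 CPM of the others, with a log2 difference of 0.82 (SE 0.10, edgeR adjusted p = 4.36e-09). Pcna had 634 and 398 CPM there and 154 to 527 CPM elsewhere, so its ranges overlapped. It was nonetheless highest in early nephron cells in each library (0.53, SE 0.09, edgeR adjusted p = 3.33e-06). Dut was at 0.70 (SE 0.09, 318 and 404 CPM against a median of 212 CPM) and Hells at 0.65 (SE 0.11, 196 and 157 CPM against 111 CPM). Cdc45 of the helicase, named after its values were seen, had 58 and 53.4 CPM there and 15.3 to 41.5 CPM elsewhere (0.99, SE 0.19, edgeR adjusted p = 3.85e-05). Among G2/M genes, Kif23, a motor of cytokinesis, had 199 and 133 CPM in early nephron cells, where the other lineages ran from 51 to 225 CPM (0.73, SE 0.12, edgeR adjusted p = 6.99e-07). By mean level, early nephron cells were the highest of 8 lineages for 7 S phase and 13 G2/M genes. For 5 and 7 of these they were highest in both wildtype libraries. The share of all genes highest there was not counted. DESeq2 called 9 S phase and 9 G2/M genes higher there, the fewest of the settings tried, and none lower.

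Endothelium leaned to G2/M. There 13 of 22 G2/M genes were higher, with a median of 0.47, and 6 of 20 S phase genes, with a median of 0.22, where 16.4% of all genes were called higher and no member was lower. Cdk1 had 308 and 274 CPM in endothelium, above the 83 to 246 CPM of the other lineages (0.89, SE 0.11, edgeR adjusted p = 8.67e-11). Birc5, the survivin of the chromosomal passenger complex, had 406 and 350 CPM there and 133 to 322 CPM elsewhere (0.82, SE 0.10, edgeR adjusted p = 9.18e-11). Neither gene overlapped. For these 2 genes endothelium was highest in both libraries. Whether the lean to G2/M differed from that of early nephron cells was not tested.

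The proximal tubule had members lower, and chiefly S phase genes. There 16 of 20 S phase genes were lower, with a median of -0.75, and 6 of 22 G2/M genes, with a median of -0.20, where 6.65% of all genes were called lower and no member was higher. Dut had 140 and 136 CPM in proximal tubule cells, against a median of 247 CPM elsewhere (-0.89, SE 0.15, edgeR adjusted p = 1.46e-06). Mcm3 had 67 and 50.4 CPM there and at least 97.5 CPM in each other lineage (-1.17, SE 0.21), and Uhrf1 had 31.9 and 41.7 CPM, below the 52.8 CPM of the next lowest value (-1.34, SE 0.25). By mean level the proximal tubule was lowest of the 8 lineages for 16 of 20 S phase genes, and the share of all genes lowest there was not counted. Its 51 and 72 wildtype cells gave 313348 and 456017 UMIs, so its single genes rest on few counts.

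The remaining lineages differed less. In the loop and distal tubule 4 S phase genes (Pcna, Tyms, Mcm6 and Rrm1, at -0.43 to -0.67) and 3 G2/M genes (Birc5, Cenpe and Ccna2, at -0.45 to -0.61) were lower, where 4.81% of all genes were called lower. In the ureteric bud and collecting duct, where 15.2% of genes were higher and 6.97% lower, Uhrf1 was higher at 0.66, and Cenpe (-0.68), Birc5 (-0.48) and Aurkb (-0.41) were lower. Cenpe had 148 and 102 CPM there and a median of 188 CPM elsewhere (SE 0.11, edgeR adjusted p = 1.63e-07), the lowest lineage in each library. In stroma, where 19.2% of genes were higher and 10.4% lower, Mcm4 and Gins2 were higher by 0.50 and 0.53 and Mcm7 lower by -0.29, and 5 G2/M genes were higher, from Nusap1 at 0.26 to Anln at 0.65. Immune cells had 2 calls, Rrm2 at -1.17 and Mki67 at 0.61, where 10.3% of genes were higher and 7.35% lower. The genes of these short counts were named after their values were seen.

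**Figure D2:**
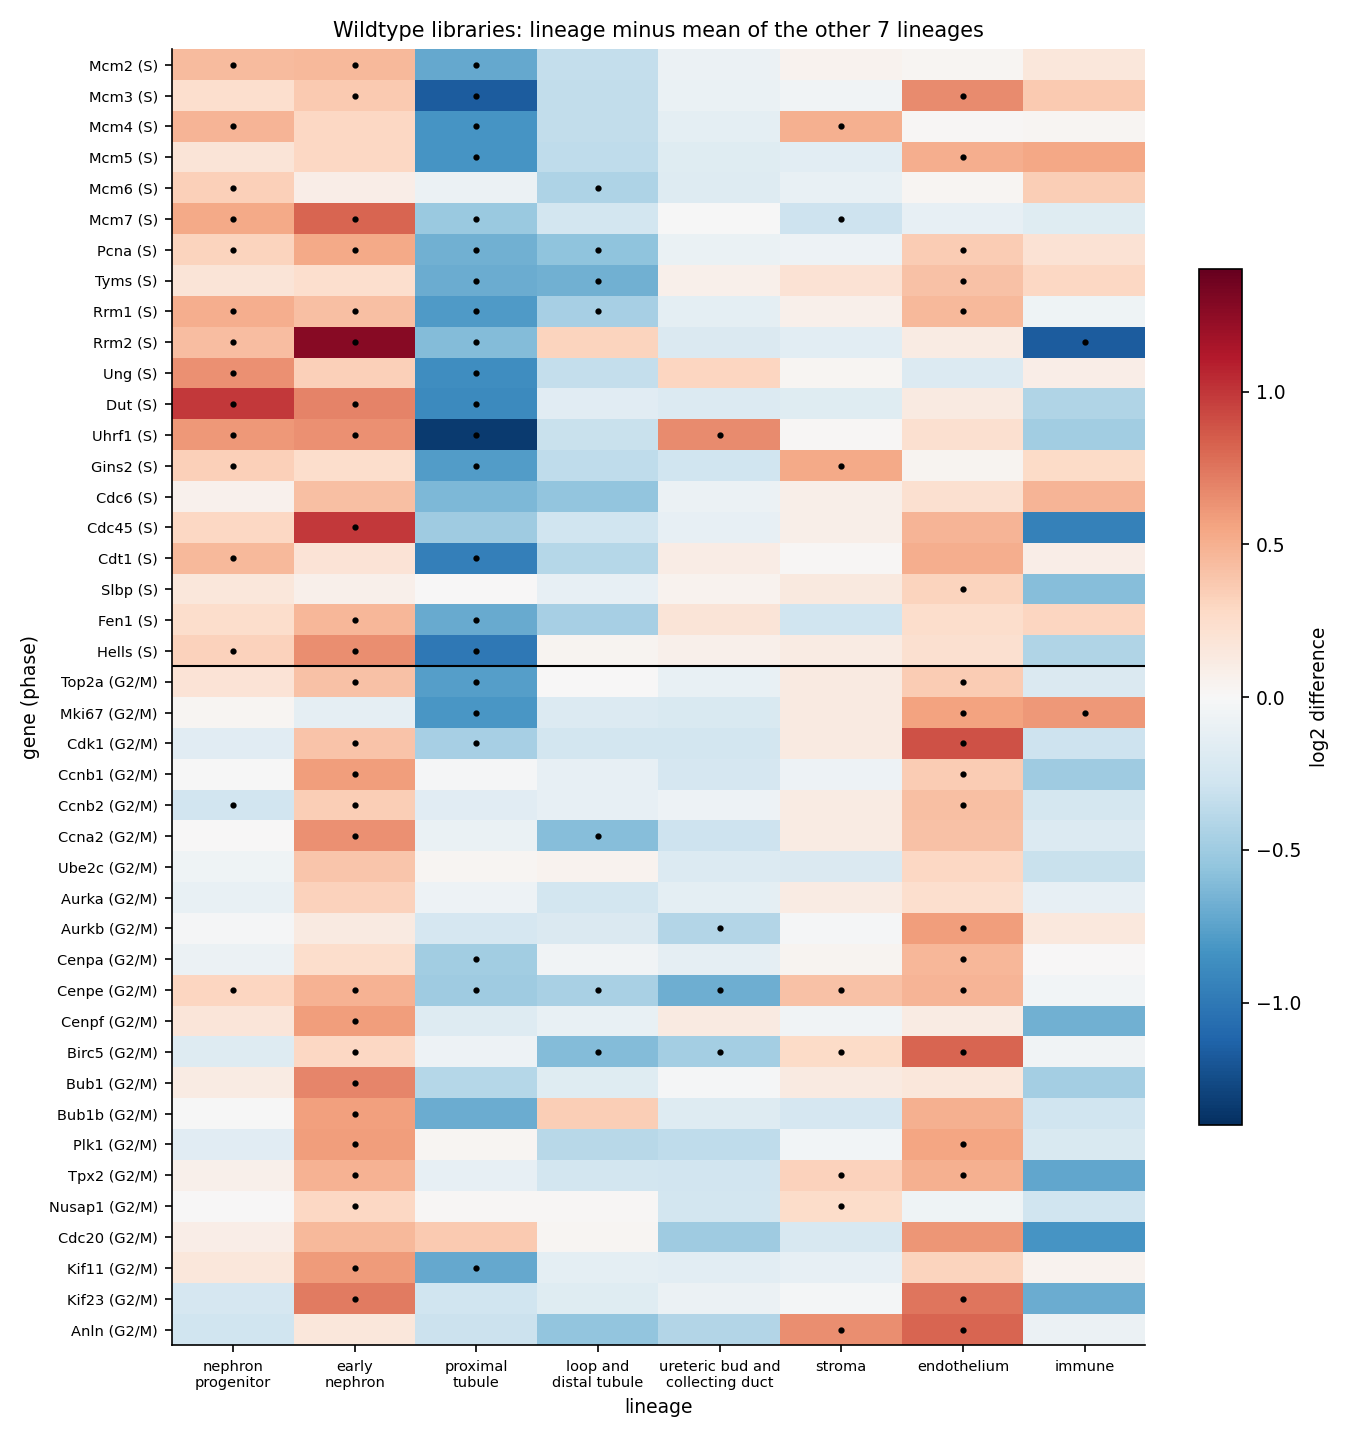
Log2 difference of each of the 42 genes (rows, S phase above the line and G2/M below) in each wildtype lineage (columns) from the mean of the 7 other lineages, red for higher and blue for lower, with a dot where the edgeR adjusted p was under 0.05. The S phase block is red with dots in nephron progenitors (13 of 20), the G2/M block in endothelium (13 of 22), both in the early nephron, and the S phase block is blue in the proximal tubule (16 of 20 lower).

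With all 4 libraries and the 5 lineages that had at least 25 cells in each, the early nephron again had members higher. There 16 of 20 S phase and 15 of 22 G2/M genes were higher and none lower, where 18.3% of 10697 genes were called higher. Rrm2 had 166 and 294 CPM in mutant and 292 and 349 CPM in wildtype early nephron cells, and 27 to 201 CPM in the other lineages. It was highest there in 4 of 4 libraries (log2 1.15, SE 0.08, edgeR adjusted p = 1e-14). Dut, Pcna, Mcm7 and Hells were also highest there in 4 of 4 libraries, with log2 differences of 0.85, 0.63, 0.90 and 0.62. Without mutant 2 the S phase count was 10.

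Endothelium had 8 S phase and 13 G2/M genes higher and none lower, where 23.9% of genes were called higher. Cenpe had 325 and 301 CPM in mutant and 274 and 179 CPM in wildtype endothelium, against a median of 177 CPM in the other lineages (0.74, SE 0.09, edgeR adjusted p = 4.78e-09). Birc5 (0.79, SE 0.10) and Cdk1 (0.79, SE 0.11) were highest there in 3 of 4 libraries. Without wildtype 2 the S phase count in endothelium was 4.

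The loop and distal tubule had 14 S phase and 11 G2/M genes lower and none higher (15% of genes lower), and the ureteric bud and collecting duct 9 and 15 lower and 1 S phase gene higher (13.6% of genes lower, 14.8% higher). Pcna had 91.8 and 148 CPM in mutant and 346 and 218 CPM in wildtype loop and distal tubule, lowest of the 5 lineages in 4 of 4 libraries (-0.81, SE 0.10, edgeR adjusted p = 1.92e-08). Cenpe in the ureteric bud and collecting duct had 104 and 105 CPM in mutants and 148 and 102 CPM in wildtype (-0.93, SE 0.10, edgeR adjusted p = 1.34e-09). Rrm2 there had 27 and 103 CPM in mutants and 130 and 148 CPM in wildtype (-0.64, SE 0.10). Cenpe was at -0.65 (SE 0.11) in the loop and distal tubule. These 2 counts rest on single libraries. Without mutant 2 they were 8 and 7 in the loop and distal tubule and 3 and 12 in the ureteric bud and collecting duct, and without wildtype 2 they were 3 and 4 in the ureteric bud and collecting duct. Stroma had 2 S phase genes higher and 4 lower and 5 G2/M genes higher and 2 lower, where 24.1% of genes were higher and 20.4% lower, and with 1 library left out its counts lower ran from 0 to 5. These contrasts are relative to the mean of the lineages included. With podocytes, which had low levels, added to the set as described next, the loop and distal tubule had 1 S phase and 0 G2/M genes lower and 1 and 4 higher, and the ureteric bud and collecting duct 0 and 1 lower and 3 and 0 higher. Nearly all of these calls lower in both lineages were thus lost once podocytes joined the set. The wildtype test above, also without podocytes, called 4 S phase and 3 G2/M genes lower in the loop and distal tubule. In the ureteric bud and collecting duct it called 0 and 3 lower.

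Podocytes were too few for the planned test and were examined after the data were seen, with Col1a2 left out of the stroma list, which admitted 281 podocytes. Their G2/M sums were below those of the 5 other lineages in each library, and their S phase sums in each library but mutant 1. The S phase sum was 1064 and 908 CPM in mutant and 632 and 983 CPM in wildtype podocytes, and the G2/M sum 249 and 860 CPM in mutant and 328 and 545 CPM in wildtype podocytes. Against the 5 other lineages, 19 of 20 S phase genes were lower, with a median of -1.61, and 22 of 22 G2/M genes, with a median of -2.63, where 17.4% of 10755 genes were called lower. The exception was Mcm4 (-0.41, edgeR adjusted p = 0.0967). Pcna had 113 and 74.3 CPM in mutant and 134 and 159 CPM in wildtype podocytes, against a mean of 308 CPM in the others (-1.73, SE 0.17, edgeR adjusted p = 1.35e-13). Its 80 UMIs were the most of the named genes here. Ccnb2 had 0 and 27 UMIs in mutant and 3 and 0 in wildtype podocytes (-2.46, edgeR adjusted p = 2.37e-13). Birc5 had 0 and 23 UMIs in mutant and 1 and 6 in wildtype podocytes (-2.78, edgeR adjusted p = 3.45e-13). In mutant 1, which had 11 podocytes, 18 of 22 G2/M genes had no UMI.

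Rrm2 had 1 and 25 UMIs in mutant and 0 and 2 in wildtype podocytes (-2.40, edgeR adjusted p = 7.81e-13), and Tpx2, a spindle assembly factor, 0 and 24 in mutant and 1 and 4 in wildtype podocytes (-2.46, edgeR adjusted p = 2.15e-12). Ccna2 had 0 and 8 UMIs in mutant and 1 and 0 in wildtype podocytes (-3.23, edgeR adjusted p = 3.37e-11). Plk1, a mitotic kinase, had 1 UMI among 901390 podocyte UMIs, against a mean of 50.9 CPM in the other lineages, a ratio of 45.9 with a counting interval of 8.24 to 1813. Each of these genes was lower in podocytes, and most podocyte UMIs came from mutant 2. Without mutant 2, 15 S phase and 21 G2/M genes were still called lower. The stroma marker UMIs given above are those of the narrower podocyte gate with Col1a2, and those of the gate used here are not given. Their part in the podocyte levels was not tested.

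The 3 members of each phase with the highest level over all kept cells show how the lineages ran in each library. Top2a had 724 and 687 CPM in mutant and 665 and 492 CPM in wildtype early nephron cells, 571 and 579 CPM in mutant and 539 and 440 CPM in wildtype stroma, and 260 and 364 CPM in mutant and 332 and 235 CPM in wildtype proximal tubule. Ube2c had 445 and 347 CPM in mutant and 376 and 555 CPM in wildtype early nephron cells, and 280 and 210 CPM in mutant and 263 and 395 CPM in wildtype stroma. Early nephron values of Top2a lay above those of the proximal tubule in each library. Ube2c varied as much between the 2 wildtype libraries as between these lineages. Within libraries, however, it was highest in early nephron cells in 4 of 4, among the lineages tested in all libraries (0.44, SE 0.10, edgeR adjusted p = 0.00191). Mki67 had 232 and 440 CPM in mutant and 260 and 175 CPM in wildtype stroma, and 220 and 498 CPM in mutant and 374 and 181 CPM in wildtype endothelium. Its libraries spread more than its lineages. Within libraries it was highest in endothelium in 3 of 4, among the same lineages (0.64, SE 0.17, edgeR adjusted p = 0.00804).

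Slbp, the histone mRNA binding protein, varied less between the lineages given here. It had 142 and 207 CPM in mutant and 176 and 165 CPM in wildtype early nephron cells, 170 and 201 CPM in mutant and 203 and 165 CPM in wildtype stroma, and 144 and 183 CPM in mutant and 191 and 145 CPM in wildtype proximal tubule. It was nonetheless higher in endothelium, with 215 and 192 CPM in mutants and 210 and 172 CPM in wildtype (0.31, SE 0.09, edgeR adjusted p = 0.00334), and at 52.8 CPM in immune cells of wildtype 1. Dut had 311 and 307 CPM in mutant and 318 and 404 CPM in wildtype early nephron cells, and 98.4 and 155 CPM in mutant and 183 and 247 CPM in wildtype stroma. Pcna in stroma had 149 and 263 CPM in mutants and 433 and 288 CPM in wildtype.

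Between genotypes, the S phase genes were lower in both mutant libraries as a sum, and no single member passed the test. Over all kept cells the S phase sum was 1477 and 2248 CPM in mutants, against 2842 and 2654 CPM in wildtype, a mean of 1862 ± 546 CPM in mutants and 2748 ± 133 CPM in wildtype (SD, n = 2 each) and a ratio of 0.678. The groups did not overlap. The G2/M sum was 2897 and 3669 CPM in mutants, against 3630 and 3445 CPM in wildtype, with means of 3283 ± 546 CPM in mutants and 3538 ± 131 CPM in wildtype (SD, n = 2 each). Here the groups overlapped, since mutant 1 was the lowest and mutant 2 the highest. As log2 ratios of the means, the sums differed by -0.56 for S phase and -0.11 for G2/M. Without mutant 1 they were -0.29 and 0.05, and without mutant 2 they were -0.90 and -0.29, so the G2/M sign turned with 1 library. In an all-cell sum, fewer cells of a dividing type and less RNA per cell cannot be told apart. With the 5 tested lineages weighted equally the S phase difference was -0.50 and the G2/M difference -0.18.

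edgeR called 208 of 15777 genes (1.32%) over all kept cells, 152 higher and 56 lower in mutants, and 0 of 42 members. DESeq2 also called 0 members. At an unadjusted p under 0.05 there were 7 S phase and 0 G2/M genes. These counts are not read as an excess, since the share of all genes at that threshold is not given. All 20 S phase genes had a negative log2 change, with a median of -0.65, as did 19 of 22 G2/M genes, with a median of -0.25, beside 7728 of 15777 genes and a median of 0.01 over all genes. Without mutant 1, 19 of 20 S phase genes were below 0, with a median of -0.49. Of the 22 G2/M genes 14 then were, with a median of -0.11. Both mutants lay below both wildtype libraries for 15 of 20 S phase and 5 of 22 G2/M genes, where 13.4% of all genes did so. The sum over 8 helicase genes was 507 and 777 CPM in mutants and 920 and 886 CPM in wildtype, and that over 4 nucleotide supply genes 399 and 593 CPM in mutants and 750 and 845 CPM in wildtype. Neither overlapped. The sum of Top2a and Mki67 did, with 696 and 952 CPM in mutants and 847 and 559 CPM in wildtype.

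Dut had 128 and 186 CPM in mutants and 263 and 335 CPM in wildtype (log2 -1.07, SE 0.34, edgeR adjusted p = 0.143). Pcna had 172 and 270 CPM in mutants and 495 and 324 CPM in wildtype (-1.01, SE 0.35, edgeR adjusted p = 0.217). Ung had 21.7 and 37.4 CPM in mutants and 45.8 and 58.1 CPM in wildtype (-0.95, SE 0.36, edgeR adjusted p = 0.283). None of these 3 overlapped, and none passed. Among G2/M genes the smallest p went to Cenpa, the histone variant of centromeres, with 144 and 176 CPM in mutants and 201 and 258 CPM in wildtype (-0.67, SE 0.33, edgeR adjusted p = 0.533). Ube2c followed at -0.68 (SE 0.35, 273 and 245 CPM in mutants, 299 and 448 CPM in wildtype, edgeR adjusted p = 0.569) and Cdk1 at -0.56 (SE 0.33, 137 and 143 CPM in mutants, 170 and 203 CPM in wildtype, edgeR adjusted p = 0.656). These 3 did not overlap either. Mki67 went the other way in value, with 211 and 405 CPM in mutants and 261 and 147 CPM in wildtype (0.48), and its groups overlapped.

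Single libraries moved these calls. Dut passed when wildtype 1 was left out (-1.35, edgeR adjusted p = 0.0499), and the number of genes called was then 377, against 335 without mutant 1 and 379 without mutant 2. Depth, mitochondrial share and Malat1 moved with genotype as given above, and their part in the S phase values was not tested. Without a mitochondrial limit the S phase difference was -0.58. Across the members the log2 change ran with the length of the longest coding transcript, with Spearman's rho of 0.51 over 42 genes, 0.59 over the S phase and 0.66 over the G2/M genes, beside 0.26 over 13651 genes. This is a correlation across genes that share the same 4 libraries, given as a description, and genes are not independent replicates.

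**Figure D3:**
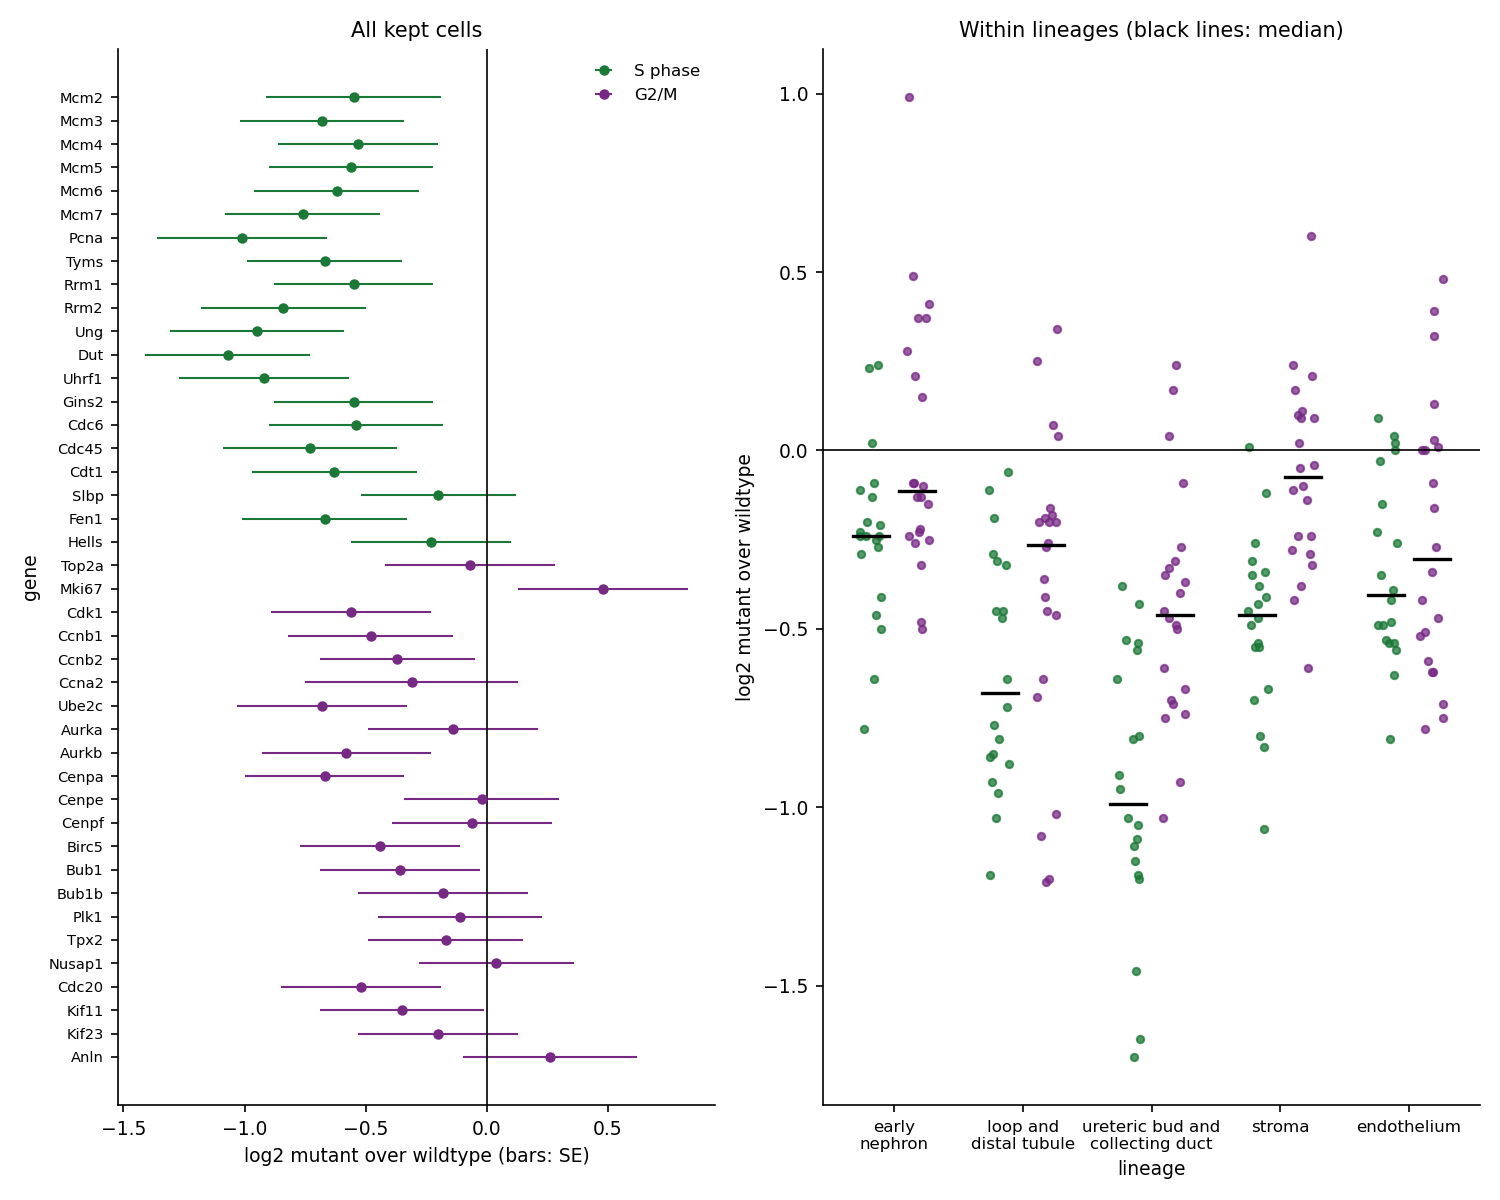
Log2 change of each gene in mutants over wildtype, over all kept cells with its SE (left) and within 5 lineages (right, 1 point a gene, black lines for medians), green for S phase and purple for G2/M. All 20 S phase points lie left of 0 over all cells, with a median of -0.65, and the ureteric bud and collecting duct has the lowest S phase median, -0.99.

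Within lineages, which sets the mix of gated lineages aside but not the mix of cells inside a gate, no member passed. The S phase sums lay below wildtype in stroma, endothelium, the loop and distal tubule and the ureteric bud and collecting duct. The S phase sum was 2163 and 3290 CPM in mutant and 3398 and 3221 CPM in wildtype early nephron cells, which overlapped. In stroma it was 1426 and 2149 CPM in mutants and 2549 and 2396 CPM in wildtype. In endothelium it was 1847 and 2266 CPM in mutants and 2752 and 2566 CPM in wildtype. The groups overlapped in neither. In the loop and distal tubule it was 1034 and 1643 CPM in mutants and 2233 and 2052 CPM in wildtype, and in the ureteric bud and collecting duct 905 and 1801 CPM in mutants and 2747 and 2325 CPM in wildtype, again without overlap. The proximal tubule ran the other way, with 2050 and 1893 CPM in mutants and 1790 and 1465 CPM in wildtype, from as few as 8 cells in mutant 1. So did the 7 progenitor cells of mutant 2, at 3832 CPM against a wildtype mean of 3073 CPM. G2/M sums overlapped in early nephron, stroma, endothelium and ureteric bud. In the loop and distal tubule they were 1915 and 2860 CPM in mutants and 2872 and 3424 CPM in wildtype, with no overlap. Without mutant 1 the log2 difference of the S phase sum was -0.01 in early nephron cells, -0.20 in stroma, -0.23 in endothelium, -0.38 in the loop and distal tubule and -0.49 in the ureteric bud and collecting duct, against -0.28, -0.47, -0.37, -0.68 and -0.91 with it. The G2/M sum then differed by -0.14 to 0.06, against -0.40 to 0.05 with it.

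The ratio of G2/M to S phase sums was 2.23 and 1.72 in mutant stroma and 1.4 and 1.47 in wildtype stroma, with no overlap. In the ureteric bud and collecting duct it was 1.83 and 1.75 in mutants and 1.29 and 1.19 in wildtype, also without overlap. In early nephron cells it was 2.08 and 1.32 in mutants and 1.28 and 1.3 in wildtype, where mutant 2 lay close to wildtype. The endothelium overlapped, with 1.59 and 1.84 in mutants and 1.75 and 1.44 in wildtype.

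Per gene, edgeR called 0 of 42 members in each of the 5 lineages, and DESeq2 called 0 as well. The genes called were 0 of 9880 in early nephron cells (0%), 9 of 8237 in endothelium (0.109%), 6 of 7459 in the loop and distal tubule (0.0804%), 27 of 11786 in stroma (0.229%) and 11 of 8452 in the ureteric bud and collecting duct (0.13%). At an unadjusted p under 0.05 the members numbered 1, 1, 8, 4 and 11 in that order. The share of all genes at this unadjusted threshold is not given, so these counts are not read as an excess. S phase medians were -0.24, -0.41, -0.68, -0.46 and -0.99 in the same order, and G2/M medians -0.12, -0.30, -0.27, -0.07 and -0.46, beside medians of 0.00 to 0.02 over all genes. Without mutant 1 the S phase medians were -0.06, -0.36, -0.56, -0.31 and -0.62 in that order and the G2/M medians -0.12, -0.09, -0.22, -0.06 and -0.18, with 0 members called. In the ureteric bud and collecting duct both mutants lay below both wildtype libraries for 15 of 20 S phase and 6 of 22 G2/M genes, where 16.9% of genes did so. In stroma the counts were 13 and 4 (16.2% of genes), in endothelium 12 and 7 (15.7%), in the loop and distal tubule 11 and 8 (1083 of 7459 genes), and in early nephron cells 4 and 2 (12.6%). In early nephron cells 6 G2/M genes lay above instead, where 16.4% of genes did so.

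Mcm3 in the ureteric bud and collecting duct came nearest to a call. It had 19.3 and 51.5 CPM in mutants and 109 and 124 CPM in wildtype (-1.70, SE 0.45, edgeR adjusted p = 0.21). It passed with no filter on low counts (-1.82, edgeR adjusted p = 0.0406) and without wildtype 1 (-1.81, edgeR adjusted p = 0.0242). Ung there had 11.6 and 23.2 CPM in mutants and 44.5 and 65.3 CPM in wildtype (-1.65, edgeR adjusted p = 0.424), and Pcna 139 and 206 CPM in mutants and 509 and 263 CPM in wildtype (-1.19, edgeR adjusted p = 0.502). Tyms (-2.70, edgeR adjusted p = 0.0438) and Aurkb passed there when mutant 2 was left out, and mutant 1 held no UMI of Aurkb in that lineage. These 39 and 51 mutant cells, against 132 and 240 wildtype cells, make it the lineage with the fewest mutant cells in mutant 2 among the 5. The mutant 1 levels of Mcm3 and Ung in this lineage rest on few UMIs.

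In the other lineages the smallest p-values went to different members. Pcna in the loop and distal tubule had 91.8 and 148 CPM in mutants and 346 and 218 CPM in wildtype (-1.19, SE 0.38, edgeR adjusted p = 0.849). Ung in stroma had 14.9 and 28.3 CPM in mutants and 39 and 51 CPM in wildtype (-1.06, SE 0.36, edgeR adjusted p = 0.368). Cdk1 in endothelium had 140 and 197 CPM in mutants and 308 and 274 CPM in wildtype (-0.78, SE 0.36, edgeR adjusted p = 0.998). In early nephron cells it was Mki67, higher in value, with 352 and 396 CPM in mutants and 244 and 134 CPM in wildtype (0.99, SE 0.37, edgeR adjusted p = 1). The libraries did not overlap in any of these 4, and none passed.

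Whether the genotype difference itself varied between lineages was tested as an interaction, the change in 1 lineage minus the mean change in the other 4, over 10697 genes. edgeR and DESeq2 called 0 members. Genes called by edgeR made up 0.0187% in early nephron cells, 0.14% in endothelium, 0.0654% in the loop and distal tubule, 0.495% in stroma and 0.383% in the ureteric bud and collecting duct. At an unadjusted p under 0.05 there were 11, 3, 6, 5 and 6 members in that order, again without the share of all genes and not read as an excess. The smallest adjusted p, 0.0816 by edgeR, went to Mcm3 in the ureteric bud and collecting duct, at -1.15 (SE 0.31). Ung there was at -1.43 (SE 0.44, edgeR adjusted p = 0.182). Both genes rest on few UMIs in mutant 1 of that lineage. Nusap1, a spindle protein, was at -0.74 (SE 0.23) in the loop and distal tubule (edgeR adjusted p = 0.528). With no filter on low counts Mki67 (-0.86, edgeR adjusted p = 0.0257) and Top2a (-0.62, edgeR adjusted p = 0.0438) passed in the loop and distal tubule, as did Top2a in stroma (0.46, edgeR adjusted p = 0.0403). Top2a in the loop and distal tubule also passed without wildtype 1 (-0.84, edgeR adjusted p = 0.0197), and Tyms in the ureteric bud and collecting duct without mutant 2 (-2.15, edgeR adjusted p = 0.0339).

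The share of cells with at least 2 UMIs of a phase counts cells instead of UMIs, after each cell was thinned to 1000 UMIs. For S phase it was 34.1% and 46.5% of mutant cells, against 58.6% and 59.9% of wildtype cells, with means of 40.3 ± 8.79% in mutants and 59.3 ± 0.914% in wildtype (SD, n = 2 each). For G2/M it was 39.1% and 43.3% of mutant cells, against 47.3% and 53.5% of wildtype cells, with means of 41.2 ± 2.99% in mutants and 50.4 ± 4.42% in wildtype (SD, n = 2 each). Neither overlapped. The mutant mean minus the wildtype mean was -19 percentage points for S phase and -9.2 for G2/M, and without mutant 1 -12.8 and -7.1. For G2/M the share and the sum differed. The G2/M sums over all kept cells overlapped, with a log2 difference of 0.05 without mutant 1. Without thinning the S phase shares were 60.7% and 72.2% in mutants and 82.5% and 83.9% in wildtype, and the G2/M shares 51.2% and 59.7% in mutants and 67.3% and 77.4% in wildtype. Thinning left out 124 and 717 mutant cells and 156 and 712 wildtype cells.

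Early nephron cells had S phase shares of 59.6% and 73.2% in mutants and 77% and 75.9% in wildtype, and G2/M shares of 74.5% and 64.6% in mutants and 73.8% and 71.2% in wildtype. G2/M shares overlapped there. Wildtype progenitors had 66.3% and 64.4% for S phase and 43% and 43.9% for G2/M. Stroma had S phase shares of 30.7% and 43.5% in mutants and 52% and 50.6% in wildtype. The ureteric bud and collecting duct had 27.8% and 44.9% in mutants and 58% and 55.7% in wildtype for S phase, and 27.8% and 34.7% in mutants and 44.3% and 52.3% in wildtype for G2/M. The G2/M shares of the 2 genotypes did not overlap there. Without mutant 1 the S phase share differed by -3.25 percentage points in early nephron cells, -7.8 in stroma and -12 in the ureteric bud and collecting duct. With it these were -10, -14.2 and -20.5. The G2/M share differed by -7.9, -3.8 and -13.6 percentage points without mutant 1 in the same order, and by -2.95, -5.05 and -17 with it. In early nephron cells the log2 difference of the G2/M sum was instead 0.03 without mutant 1 and 0.05 with it. The share is a count over cells of 1 library, so cells are not replicates, and no test was made.

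Podocytes, which leave the cell cycle as they mature, served as the cells that should lack these transcripts. Whether their UMIs came from free RNA, mixed cells or their own transcription was not tested. At 1000 UMIs, 36.4% and 18.5% of mutant and 10.3% and 42.9% of wildtype podocytes had at least 2 S phase UMIs, while 0% and 6.5% of mutant and 6.9% and 9.52% of wildtype podocytes had at least 2 G2/M UMIs. The 0% is 0 of 11 cells, with an exact 95% interval up to 28.5%. Their median depths were 3327 and 3071 UMIs in mutants and 2276 and 3212 UMIs in wildtype, against 2394 to 3597 UMIs over all kept cells of a library. The G2/M shares given for the other lineages stood above this level. For S phase each library was set beside its own podocytes. In mutant 2 and wildtype 1 the shares given above lay above the 18.5% and 10.3% of podocytes. In mutant 1 those of all kept cells, stroma and the ureteric bud and collecting duct lay below the 36.4% of its 11 podocytes. That podocyte share is loose, with an interval from 10.9% to 69.2%. In wildtype 2 the same shares lay above the 42.9% of its 21 podocytes. For all kept cells, stroma and the ureteric bud and collecting duct, only mutant 2 among the mutants thus had S phase shares above its own podocytes. The differences of S phase shares there lean on that library. Wildtype proximal tubule had 44% in wildtype 1, above its podocytes, and 31% in wildtype 2, below the 42.9% of its 21 podocytes.

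**Figure D4:**
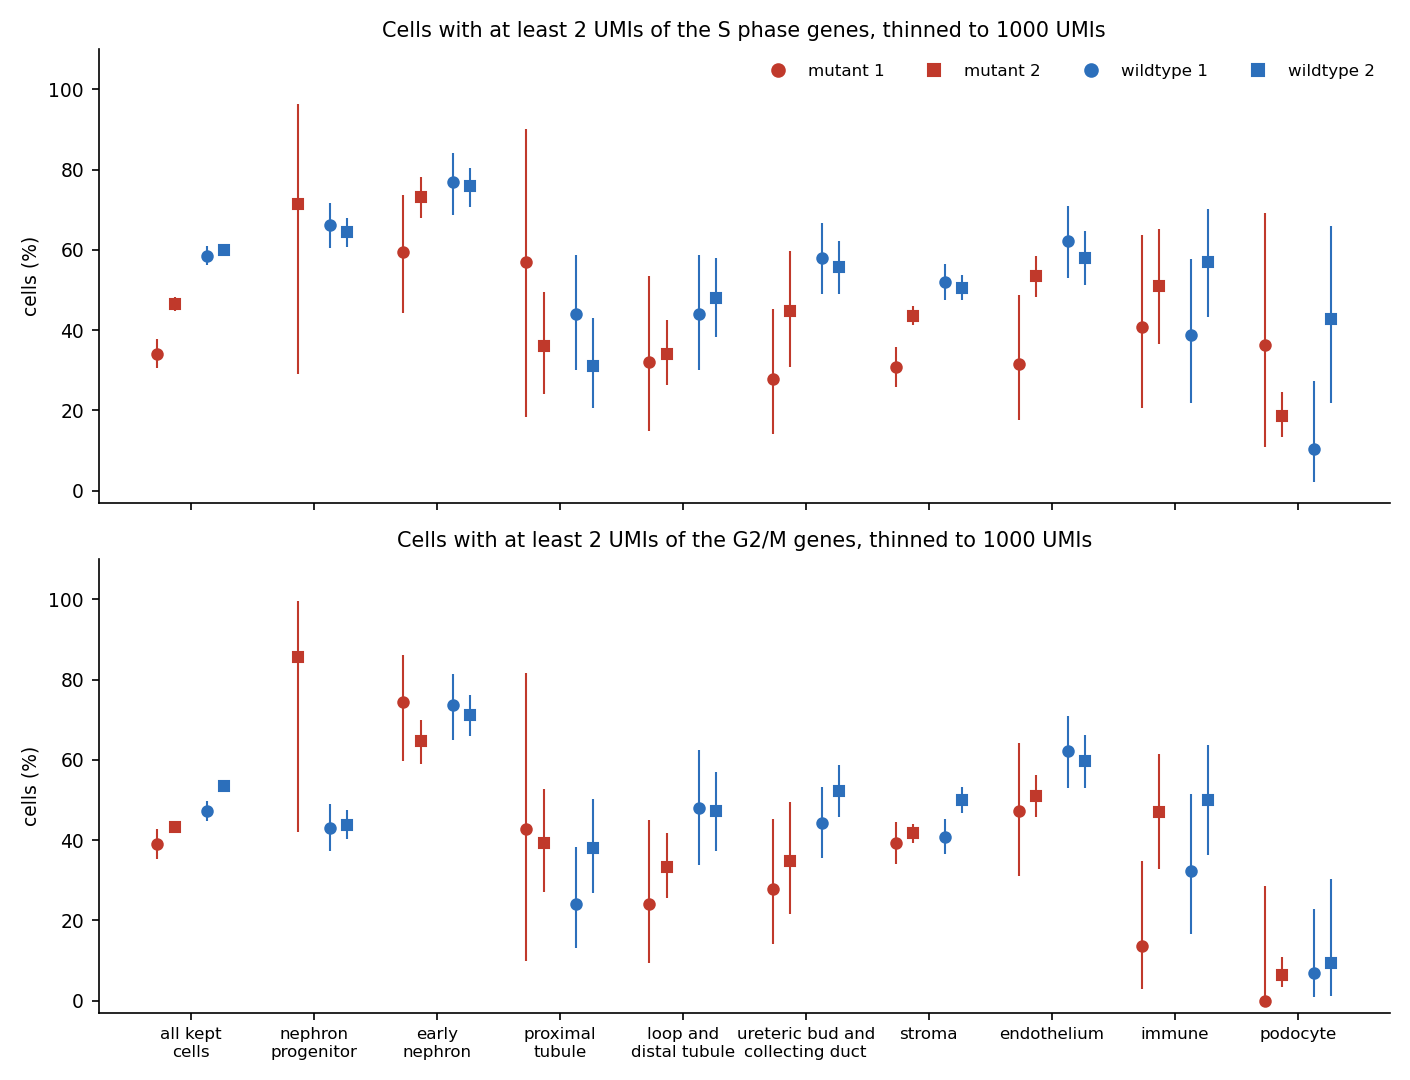
Share of cells (%) with at least 2 UMIs of the S phase genes (top) and the G2/M genes (bottom), each cell thinned to 1000 UMIs, per lineage and library, red for mutant and blue for wildtype, with exact 95% Clopper-Pearson intervals that cover counting error only. Over all kept cells the S phase shares are 34.1% and 46.5% in mutants and 58.6% and 59.9% in wildtype, and podocytes stand at the right.

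Other genes of the pathway, taken as 5 lists, followed the members in part. Over all kept cells no list had a call between genotypes. All 26 other replication genes had a negative log2 change, with a median of -0.51, as did 24 of 30 other mitosis genes tested, with a median of -0.14. Cyclins and CDKs outside the members had a median of -0.21 over 15 genes, E2F, RB and MuvB control genes a median of 0.02 over 16, and CDK inhibitors and exit genes a median of 0.26 over 11, of which 8 were above 0.

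Among wildtype lineages, 16% of all genes were called higher in the early nephron. There 20 of 26 other replication genes and 22 of 30 other mitosis genes were higher, and none lower. They included Gmnn, the geminin that restrains Cdt1 (0.71, SE 0.10), Cdca7 (0.71, SE 0.10) and Smc2 of condensin (0.59, SE 0.09). Nephron progenitors had 9 of 26 replication genes higher, and 3 of 30 mitosis genes higher and 2 lower. Of all genes, 18.3% were higher and 9.79% lower there, so the mitosis counts are not read as an excess. Endothelium had 13 of 30 mitosis genes higher, among them Nuf2 of the kinetochore (1.05, SE 0.18), where 16.4% of all genes were higher. The proximal tubule had 8 of 26 replication genes lower and 1 higher. There 6.65% of all genes were lower, and the share of all genes higher is not given.

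Regulators upstream also differed between lineages. Ccnd1, cyclin D1, had 1407 and 1875 CPM in mutant and 2357 and 2103 CPM in wildtype early nephron cells, while wildtype progenitors had 261 and 237 CPM. Among wildtype lineages its log2 difference was 2.43 (SE 0.06, edgeR adjusted p = 2.94e-50) in early nephron cells, 1.20 in the loop and distal tubule and -1.15 in progenitors. Ccnd2, cyclin D2, was higher in wildtype stroma (2.09, SE 0.09, edgeR adjusted p = 1.92e-25). Of the E2F list, E2f3 was higher in early nephron cells (0.88, SE 0.19) and progenitors (0.62, SE 0.17).

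Inhibitors marked other lineages. Cdkn1a, the p21 inhibitor, had 179 and 184 CPM in wildtype proximal tubule and 49 and 147 CPM in wildtype ureteric bud and collecting duct, with 3.07 to 35.2 CPM in the other tested lineages of wildtype 1. It was higher in the proximal tubule (3.78, SE 0.23, edgeR adjusted p = 1.88e-22), higher in the ureteric bud and collecting duct (2.65, SE 0.19, edgeR adjusted p = 1.09e-19), and lower in progenitors (-2.41, SE 0.32). Cdkn1b, the p27 inhibitor, was higher in the proximal tubule (0.93, SE 0.24) and the loop and distal tubule (0.74, SE 0.22). Cdkn1c, the p57 inhibitor, had 3192 and 10296 CPM in mutant and 14425 and 13316 CPM in wildtype podocytes of the gate with Col1a2. With Col1a2 left out, its log2 difference from the 5 other lineages was 4.55 (SE 0.17, edgeR adjusted p = 8.75e-13), in the lineage where 41 of 42 members were lower. In wildtype stroma it was also higher (3.17, SE 0.12, edgeR adjusted p = 4.6e-09). Foxm1, an activator of G2/M genes, was lower in podocytes (-3.59, SE 0.88, edgeR adjusted p = 0.000824), as was Ccnd1 (-2.90, SE 0.29).

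A few regulators did differ between lineages in their genotype change. Cdkn1c had 1753 and 1857 CPM in mutant and 2419 and 1991 CPM in wildtype stroma, but 425 and 500 CPM in mutant and 318 and 268 CPM in wildtype early nephron cells. Its interaction in stroma was -0.89 (SE 0.11, edgeR adjusted p = 3.93e-07). Gas1, a growth arrest gene, had 266 and 355 CPM in mutant and 88.6 and 145 CPM in wildtype stroma, with an interaction of 1.25 (SE 0.22, edgeR adjusted p = 0.000219). Ccnd2 had 257 and 297 CPM in mutant and 158 and 121 CPM in wildtype loop and distal tubule, with an interaction of 1.06 (SE 0.19, edgeR adjusted p = 0.000919), and one of -0.58 (SE 0.13, edgeR adjusted p = 0.0112) in stroma. Ndc80 of the kinetochore had an interaction of 0.85 in stroma (SE 0.21, edgeR adjusted p = 0.0284). The groups did not overlap in the levels given for Gas1, for Ccnd2 in the loop and distal tubule and for Cdkn1c in both lineages.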

How the data were processed

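Kidney cells of mouse embryos were counted in 4 Drop-seq libraries, 2 mutant and 2 wildtype. Each library came as 1 table of counts by gene and barcode, which the authors deposited as whole numbers with no scaling visible in the values. Bowtie2 2.2.7 and the build mm10 are named in the submitters' processing notes. Annotation, strand handling and the collapse of molecular identifiers are not given in the sources used here. Counts are called UMIs, and intervals cover counting error only.

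Barcodes with at least 500 genes and at most 10% mitochondrial counts were kept, without the 5% of each library with the highest Scrublet score (43 and 228 mutant, 98 and 252 wildtype barcodes). Scores served as ranks, since no caller threshold was used. This left 11778 cells. A cell was gated into 1 of 12 lineages when it had at least 3 UMIs from at least 2 of its markers and at least 2 times as many as of any other lineage. The members, marker lists, gene lists and tests were chosen with earlier results of these data known.

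The replicate is the library, and sums per library and lineage were tested with the quasi-likelihood F test of edgeR 4.0.16 (R 4.3.3, robust fit, TMM scaling, genes kept by filterByExpr), with Benjamini-Hochberg adjustment over all genes tested and a threshold of 0.05. Log2 changes are mutant over wildtype, or 1 lineage over the mean of the others with library as block. A lineage needed at least 25 cells in each library. The interaction compared genotype changes between lineages in 1 fit. Sums and shares had no test. For shares each cell was thinned to 1000 UMIs (seed 0), with exact 95% intervals. Members named are, per comparison, up to 12 past the test with the smallest p, otherwise the 3 S phase and 3 G2/M genes with the smallest p, and the 3 of each phase with the highest summed level. Pathway genes were named up to 4 a list by p. Of 100 pathway genes and 106 markers, 99 and 105 were in the tables. Promoters came from RefSeq and transcript lengths from GENCODE vM21 on mm10. The labels name no batch. Alternatives were DESeq2 1.42.0, no low-count filter, a replicate block, each library left out, other cell, doublet, mitochondrial and gate limits, and other thinning depths. The tests were checked on simulated counts. Gating and thinning used scanpy 1.11.5, anndata 0.12.19 and numpy 2.4.6 under Python 3.11.15, and tables, intervals and plots used pandas 2.3.3, scipy 1.17.1 and matplotlib 3.10.9.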

Additional observations from a re-analysis of the deposited data

How the results depend on the processing

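Alternatives for the wildtype lineage test (library is its block by design), the interaction and the podocyte test, and the stroma list without Col1a2, were chosen after seeing the data. Counts for lineage tests are summed over lineages, so a gene can count in several. Within lineages, no filter on low counts called 234 gene differences and 1 member, against 53 and 0. For the interaction DESeq2 called 52 gene differences and no filter 187 and 3 members, against 118 and 0. In the wildtype lineage test DESeq2 called 23 member differences lower, against 35. The G2/M sum over all cells turned to 0.05 without mutant 1 and was -0.29 without mutant 2, a range of -0.29 to 0.05, and the S phase sum ranged from -0.90 to -0.29. Leaving out 1 library at a time, the all-cell test called 267 to 379 genes and 0 to 1 members, and the within-lineage test 99 to 313 gene differences and 0 to 2 members. The lineage test over all 4 libraries then called 32 to 56 member differences lower, against 55, the interaction 51 to 130 gene differences and 0 to 1 members, and the fit with podocytes 13464 to 22354 gene differences over its 6 lineages, against 21879. Replicate numbers 1 and 2 share only a number (r of deviations 0.0819 over 15777 genes). With the replicate number as a block, 169 genes and 0 members were called over all cells and 79 gene differences and 0 members within lineages. Of the remaining values, 186 for whole comparisons and 65 for the named genes of the all-cell test kept their direction and side of the threshold, and Dut passed without wildtype 1. The causes were not tested. Leaving a library out leaves a genotype with 1 library, which is assumed to vary like the other, and in the wildtype lineage test it leaves no residual degrees of freedom, so that was not run. Leaving out erythroid cells changes nothing in lineage tests, which do not hold them. Depth limits mutant 1 most, with 13281 member UMIs, against 101626 in mutant 2 and 58700 and 138314 in wildtype.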
